A study of Homo sapiens with 12 samples.

Results

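The comparison set JMJD3 knockout HL-60 cells against parental HL-60 cells, in 3 RNA-sequencing libraries each, which are 6 of the 12 libraries of the series. Libraries were assigned by their labels, and every gene of the deposited table entered the comparison. The table listed 60662 genes, of which 14186 passed the expression filter and were tested. The control group is labelled as parental cells and the other as JMJD3 knockout, and no drug, differentiation agent or transgene is named for either. Both were grown in DMEM with 10% fetal bovine serum. The labels do not give the edited site, whether the knockout cells are 1 clone, or whether the replicates of a group were grown separately. The p-values therefore reflect only how much these 6 libraries scatter, and that scatter may be technical. Differences that arose when the knockout line was derived cannot be told apart from those that follow the loss of JMJD3.

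HL-60 is a human leukaemia line of promyelocyte type, the stage at which granulocyte precursors fill their azurophil granules with myeloperoxidase and proteases. JMJD3, the product of KDM6B, is a demethylase that takes methyl groups off lysine 27 of histone H3, as does its relative UTX, the product of KDM6A. The opposing enzymes EZH2 and EZH1 place this mark as part of Polycomb repressive complex 2 (PRC2), and Polycomb repressive complex 1 (PRC1) binds it and ubiquitinates histone H2A. The comparison asks which transcripts differ where JMJD3 has been targeted.

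KDM6B transcript was lower but still present in the knockout libraries. The gene lies at chromosome 17, 7839904 to 7854796, on the plus strand (GRCh38). Its level was 56.6, 56.6 and 59 CPM (counts per library of 1000000 reads) in the parental libraries and 37.2, 45.2 and 36.9 CPM in the knockout libraries, so the groups did not overlap. That held for 48.9% of all genes tested. The means were 57.4 ± 1.41 and 39.8 ± 4.70 CPM (± gives the SD, n = 3 each, here and below), a log2 fold change of -0.53 (SE 0.07; edgeR quasi-likelihood test, Benjamini-Hochberg adjusted p = 2.44e-05). In the deposited FPKM values, which are per length, the parental libraries held 11, 11 and 10.4 and the knockout libraries 6.31, 11.4 and 6.14, so that knockout replicate 2 lay above the parental range. On the log2(FPKM + 1) scale the change was -0.45 and did not pass limma's test (adjusted p = 0.156). A count per gene does not show whether the remaining transcript is intact, so these values do not check the loss of the protein.

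Of the 15 tested genes of KDM6 demethylases and PRC2, 6 fell (40%, against 20.2% of all genes) and 2 rose (13.3%, against 17.6%). KDM6B itself is among the 6. KDM6A, the gene of UTX, measured 46.4, 47.9 and 51.3 CPM in the parental libraries and 37, 41.8 and 45 CPM in the knockout libraries, and fell by 0.24 on the log2 scale (adjusted p = 0.0121). EZH1 fell by 0.27 (adjusted p = 0.0469), although its groups overlapped. EZH2, the main methyltransferase of dividing cells, measured 116, 112 and 115 CPM in the parental libraries and 110.3, 106 and 112 CPM in the knockout libraries, and did not pass the test (log2 fold change -0.065, adjusted p = 0.263). The PRC2 accessory genes C17orf96, MTF2 and AEBP2 fell, with log2 fold changes of -0.64, -0.25 and -0.21. The accessory gene PHF19 and the histone-binding subunit gene RBBP7 rose, by 0.14 and 0.13. Leaving out a library in turn ended some of these calls: KDM6A without parental replicate 3 or knockout replicate 1 (adjusted p up to 0.0720), EZH1 without parental replicate 1 or 3 or knockout replicate 1 or 3 (adjusted p up to 0.146), AEBP2 without parental replicate 1 or knockout replicate 1 (adjusted p up to 0.0793), RBBP7 without parental replicate 1 or 3 or knockout replicate 1 or 3 (adjusted p up to 0.117) and PHF19 without parental replicate 1 (adjusted p of 0.0803).

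The lines differed at many genes, most of them by a small amount. In all, 5357 of 14186 genes passed an adjusted p under 0.05 (37.8%), of which 2497 were higher in the knockout (17.6%) and 2860 lower (20.2%). The groups did not overlap in 6939 of the 14186 genes (48.9%), so a lack of overlap is common here. The median absolute log2 fold change of the called genes was 0.33, and 3704 of them changed by less than 0.5. Calls of 1 or more on the log2 scale numbered 266 higher and 510 lower, and calls of 4 or more numbered 40 higher and 86 lower. Falls therefore outnumbered rises from 0.5 upward, while below 0.5 rises were the more numerous, at 1947 against 1757. On the log2(FPKM + 1) scale, limma's test called 3224 genes, 1692 higher and 1532 lower. Where that scale, or leaving out a library, moved a count of 10 or more in a gene list below by over 1.5 times, the other count is given beside it. Counts of list members below are to be set beside the shares over all genes, 17.6% higher and 20.2% lower.

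Shifts of under 0.5 were called in many abundant genes. The libraries held 28563546 to 43647715 expected counts, the parental libraries being the deeper on average. The 10 most abundant genes that rose by less than 0.5 were ACTB, PTMA, ENO1, HSP90AA1, HMGB1, NCL, YBX1, FTL, CALR and MYC. HSP90AA1, a cytosolic chaperone, averaged 1934 ± 79.5 and 2692 ± 233 CPM in parental and knockout cells (log2 fold change 0.48, adjusted p = 1.04e-05). ENO1, a glycolytic enzyme, averaged 2202 ± 84.7 and 2485 ± 124 CPM in parental and knockout cells (log2 fold change 0.17, adjusted p = 0.0087). The 10 most abundant genes that fell by less than 0.5 were EEF1A1, EEF1G, EEF2, PABPC1, RPL3, RPL13A, RPS4X, TPT1, HNRNPA1 and MPO. The first 7 are ribosomal proteins, elongation factors and the poly(A)-binding protein of translation. EEF1A1, which brings aminoacyl-tRNA to the ribosome, averaged 16738 ± 192 and 14978 ± 244 CPM in parental and knockout cells (log2 fold change -0.16, adjusted p = 0.00805). Among the most abundant genes with an unadjusted p of 0.5 or more were NPM1, RPLP1, RPS27, RPL19, RPL27A, RPSA and the mitochondrial transcripts MT-CO1, MT-CO2, MT-CO3 and MT-CYB. NPM1, a nucleolar histone chaperone, measured 3024, 3113 and 2983 CPM in the parental libraries and 3097, 2894 and 3115 CPM in the knockout libraries. Some of the small shifts lost their call when a library was left out: EEF1A1 without parental replicate 1 (adjusted p of 0.0604), ENO1 without parental replicate 1 or knockout replicate 1 (adjusted p up to 0.0597), ACTB without parental replicate 1 (adjusted p of 0.0522), NCL without parental replicate 1 or knockout replicate 1 or 3 (adjusted p up to 0.143) and HNRNPA1 without parental replicate 1 or 2 or knockout replicate 1 or 3 (adjusted p up to 0.0668).

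**Figure D1:**
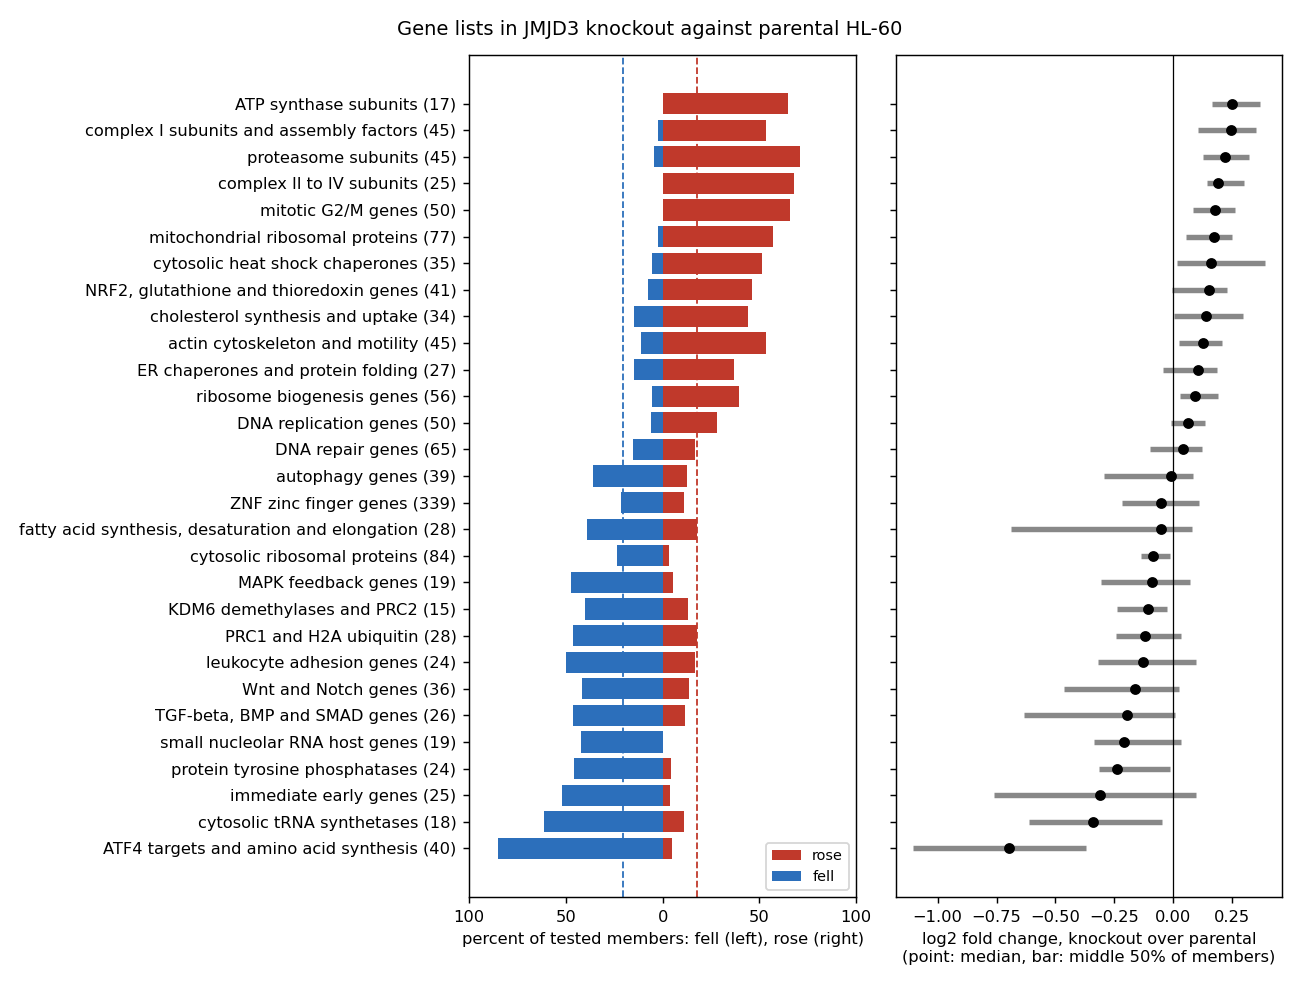
Selected gene lists ordered by their median change. Left, percent of tested members that rose (red) or fell (blue) in the knockout at an adjusted p under 0.05, with the number of tested members in parentheses and dashed lines at the shares over all genes tested (17.6% and 20.2%). Right, the median log2 fold change (points) and the middle 50% of members (bars). Among the lists drawn, the amino acid response lies lowest, at -0.70, and ATP synthase, complex I and proteasome lie highest, at 0.25, 0.24 and 0.22. Some smaller lists that are not drawn lie further out, such as HOX genes (-1.08), SERPIN inhibitors (-0.88), histone genes (0.62) and chemokine receptors (0.87).

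At the far end of the range, 21 genes had 5 CPM or more in every library of a group and under 0.5 CPM in every library of the other: 14 were near 0 in the knockout and 7 near 0 in the parental line. These genes were picked by their values, and no test is read from them. The 14 belonged to unlike families. HOXC10, a homeobox gene on chromosome 12, measured 9.66, 10.2 and 11 CPM in the parental libraries and had no count in any knockout library, a level at least 315-fold lower when the knockout group is set at a floor of 3 counts. On the same floor SLC16A14, of the monocarboxylate transporter family, was at least 236-fold lower, and ZDHHC21, a palmitoyltransferase, at least 219.8-fold lower. ANXA3, a calcium-dependent membrane-binding protein, had 2536 counts in the parental group and 2 in the knockout group, a 1001-fold ratio (95% counting interval 277 to 8272). SEPT11, a cytoskeletal septin, FERMT1, an activator of integrins, SEMA4C, a semaphorin, and SOAT1, which esterifies cholesterol, were in the same group, as were ZNF229, SPATC1L, WWC1, HLTF, DEFA1 and IL13RA1.

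Of the genes near 0 in the parental line, ERGIC1, a protein of the transport between endoplasmic reticulum and Golgi, had no count in any parental library and 24.7, 24.5 and 22.5 CPM in the knockout libraries. It was at least 924-fold higher on the floor of 3 counts. CBR1, a carbonyl reductase, measured 0.108, 0.315 and 0.227 CPM in the parental libraries and 26, 21.9 and 26.4 CPM in the knockout libraries. VIT and P3H3, genes of the extracellular matrix and of collagen hydroxylation, and the zinc finger genes ZNF273, ZNF322 and ZNF331 made up the 7. Just outside the limits lay genes such as NEFH, with 27.2 ± 1.68 CPM in the parental and 0.547 ± 0.232 CPM in the knockout group, and CTSL, with 14.5 ± 1.41 and 0.469 ± 0.0815 CPM. The number of on/off genes was 26 without parental replicate 2 and 22 without knockout replicate 1.

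**Figure D2:**
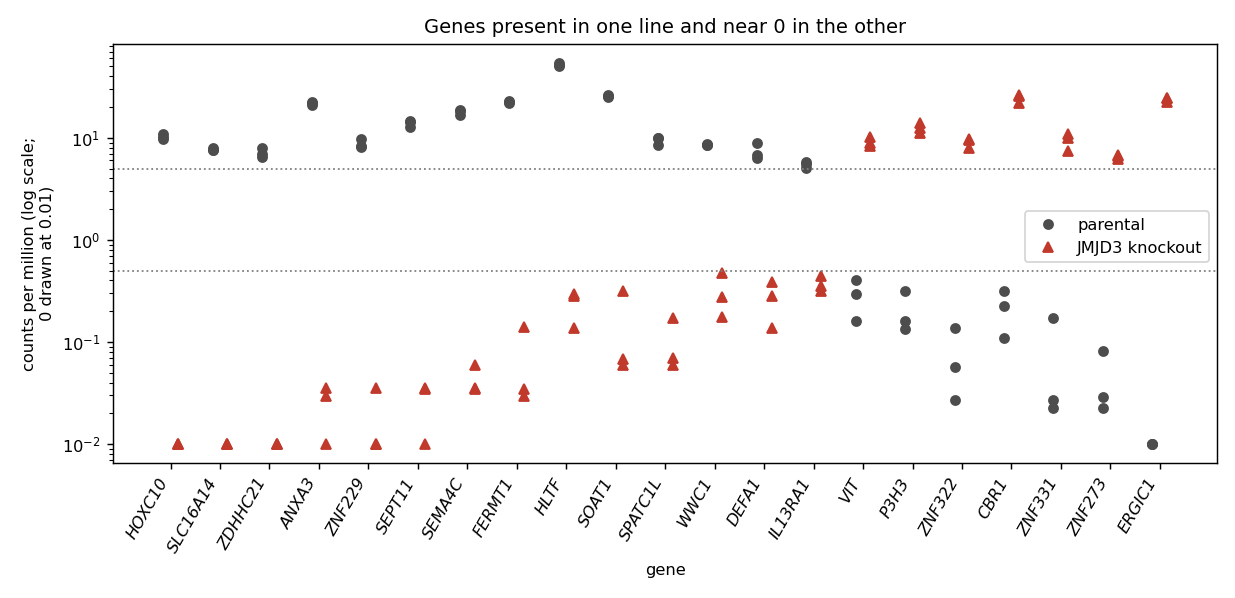
Levels of the 21 on/off genes in every library, in CPM on a log scale, with values of 0 drawn at 0.01. Circles are parental and triangles knockout libraries, and dotted lines mark 5 and 0.5 CPM. The 14 genes on the left were near 0 in the knockout and the 7 on the right near 0 in the parental line.

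Promoters of the on/off genes were compared with others for CpG dinucleotides, in which silenced promoters are often methylated, over the 250 bases before and 50 after the RefSeq start (GRCh38.p14). Of the 21 genes 16 matched. The 10 that fell had a median of 26.5 CpG (range 6 to 37) and the 6 that rose a median of 20 (range 1 to 27). Promoters of tested genes had a median of 26, with the middle 50% from 18 to 34. Methylation was not measured.

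Among lists of 10 or more tested genes, the amino acid response had the largest share of calls in a direction. Cells short of an amino acid, or under endoplasmic reticulum stress, translate more of the transcription factor ATF4, which with C/EBP partners switches on amino acid synthesis, transport and tRNA charging through a composite element. Of the 40 tested genes of the list, 34 fell (85.0%) and 2 rose, with a median log2 fold change of -0.70, against -0.0022 over all genes. The list was drawn up with a fall of part of it in these libraries already known, so its count is a description. The element, TGATGNAA on either strand, lay in the promoter window of 11 of the 33 genes with a RefSeq promoter (33.3%) and of 4.46% of all RefSeq genes. Shares over RefSeq genes, here and below, include genes that were not tested. The 11 had a median log2 fold change of -0.66 and the other 22 one of -0.82, so a match in this window did not mark the larger falls. Stretches of 120 bases from 5 of these promoters are given with the element in capitals, 5′ to 3′ on the gene's strand, because they are members whose fall is described next. They lie at chr7:97872409-97872528 (ASNS, minus strand), chr12:24949102-24949221 (BCAT1, minus strand), chr19:46784815-46784934 (SLC1A5, minus strand), chr19:33373993-33374112 (CEBPG, plus strand) and chr15:40953221-40953340 (CHAC1, plus strand, where the element reads on the other strand).
ASNS: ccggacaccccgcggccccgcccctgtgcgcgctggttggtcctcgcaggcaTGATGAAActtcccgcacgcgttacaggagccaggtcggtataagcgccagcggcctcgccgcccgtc
BCAT1: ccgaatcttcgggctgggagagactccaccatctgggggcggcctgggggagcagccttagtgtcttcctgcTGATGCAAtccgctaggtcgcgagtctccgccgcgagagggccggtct
SLC1A5: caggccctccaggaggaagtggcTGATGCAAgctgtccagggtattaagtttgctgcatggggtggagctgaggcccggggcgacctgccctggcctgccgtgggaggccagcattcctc
CEBPG: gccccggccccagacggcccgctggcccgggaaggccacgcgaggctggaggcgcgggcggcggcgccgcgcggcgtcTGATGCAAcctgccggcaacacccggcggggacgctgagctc
CHAC1: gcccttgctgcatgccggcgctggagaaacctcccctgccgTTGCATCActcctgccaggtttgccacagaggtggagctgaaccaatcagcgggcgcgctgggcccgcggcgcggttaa

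Of the amino acid synthesis genes, the serine pathway fell as a whole. PHGDH, its first enzyme, measured 331, 324 and 324 CPM in the parental libraries and 147, 166 and 139.5 CPM in the knockout libraries, a log2 fold change of -1.11 (SE 0.055, adjusted p = 3.56e-10). PSAT1, the second enzyme, measured 424, 412 and 416 CPM and 122, 154 and 127 CPM in the same order, a log2 fold change of -1.64 (adjusted p = 3.95e-07). In both genes every knockout library was below every parental library, and the groups did not overlap in 48.9% of all genes tested. PSPH, the last enzyme, changed by -1.12 (adjusted p = 1.82e-09), and SHMT2 and MTHFD2, which pass the carbon of serine to folate in mitochondria, by -0.63 and -0.79. ASNS, which makes asparagine and carries the first sequence above, measured 269, 259 and 249 CPM in the parental libraries and 116, 128 and 118 CPM in the knockout libraries (log2 fold change -1.10, SE 0.048, adjusted p = 3.74e-11). BCAT1, the cytosolic transaminase of branched-chain amino acids, changed by -0.75 (adjusted p = 8.91e-10), with 299 ± 7.35 and 177 ± 6.36 CPM.

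Of the transporters, SLC7A11, which takes up cystine, measured 67.4, 58 and 75.7 CPM in the parental libraries and 13.8, 25.3 and 17.4 CPM in the knockout libraries (log2 fold change -1.82, adjusted p = 0.00632). The neutral amino acid carriers SLC7A5, SLC1A5, SLC38A2 and SLC43A1 changed by -0.70, -0.66, -0.86 and -0.85, and SLC3A2, the heavy chain that SLC7A5 and SLC7A11 share, by -0.70. All 6 passed the test. The regulators fell with them. ATF4 itself measured 1120.5, 1174 and 1156 CPM in the parental libraries and 709, 786 and 704 CPM in the knockout libraries (log2 fold change -0.65, adjusted p = 2.42e-08). Its stress-response partner DDIT3 changed by -1.34, the pseudokinase TRIB3 by -1.37 and the C/EBP member CEBPG by -0.31, and each passed the test.

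The largest falls of the list were in ADM2, a secreted peptide, CHAC1, which breaks down glutathione, and SESN2, a leucine sensor that restrains mTORC1. ADM2 measured 19.9, 22.1 and 22.9 CPM in the parental libraries and 0.481, 1.44 and 0.667 CPM in the knockout libraries (log2 fold change -4.60, adjusted p = 2.78e-07). CHAC1 measured 35, 37.1 and 44.5 CPM in the parental libraries and 2.95, 8.13 and 4.71 CPM in the knockout libraries (log2 fold change -2.86, SE 0.35, adjusted p = 0.00395). SESN2 measured 63.2, 58 and 68.2 CPM and 7.83, 14.2 and 8.04 CPM in the same order (log2 fold change -2.64, adjusted p = 0.00143). The groups overlapped in none of the 3, as in 48.9% of all genes tested. Knockout replicate 2 was the highest knockout library in 29 of the 34 members of the list that fell. The list summed to 5239, 5720 and 5282 CPM in the knockout libraries and to between 8360.03 and 8569 CPM in the parental libraries. Over all tested genes too, knockout replicate 2 was the knockout library closest to each parental library. With parental replicate 1, log2 CPM correlated at 0.969, 0.972 and 0.970 for knockout replicates 1, 2 and 3. Without knockout replicate 2 the number of list members that fell was 34. The 2 genes that rose are kinases of the translation factor eIF2: EIF2AK2, the sensor of double-stranded RNA, by 0.40, and EIF2AK4, the sensor of uncharged tRNA, by 0.20. ATF5, a related factor, was higher in every knockout library (66.7 ± 5.61 against 88.2 ± 19.4 CPM) but did not pass the test (adjusted p = 0.159). List members beyond the 6 smallest p-values were chosen for naming after their values were seen.

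**Figure D3:**
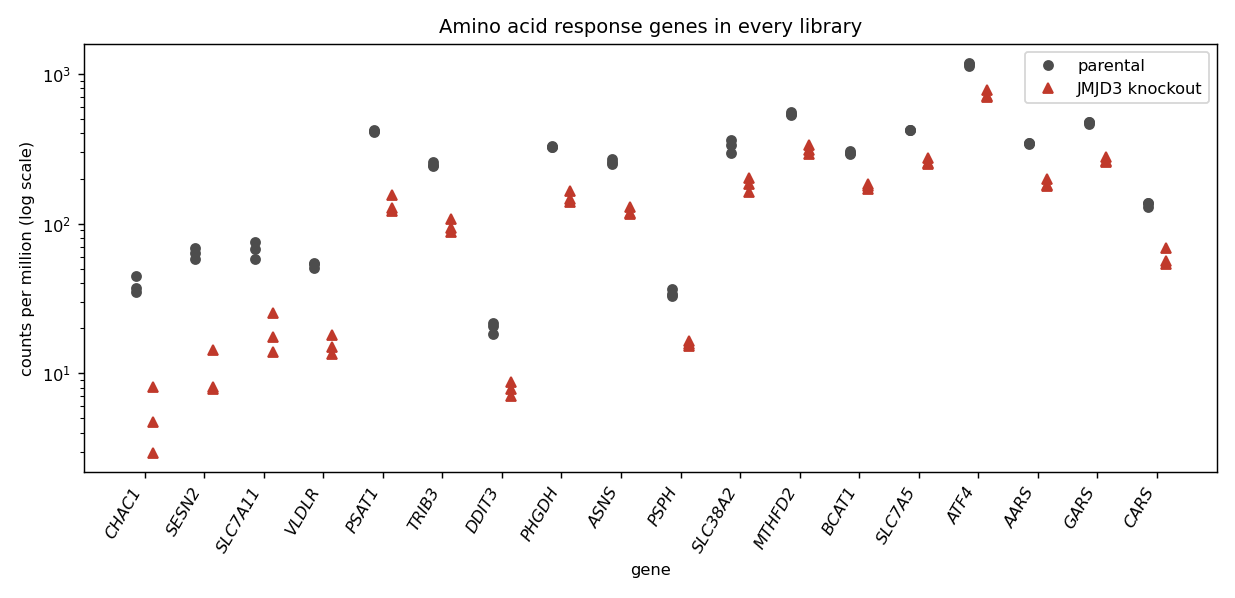
Levels of 18 amino acid response and tRNA synthetase genes in every library, in CPM on a log scale. Circles are parental and triangles knockout libraries. In each of these genes the 3 knockout libraries lie below the 3 parental libraries, from CHAC1, between 2.95 and 8.13 CPM in the knockout, to ATF4, between 704 and 786 CPM. A lack of overlap between the groups was found in 48.9% of all genes tested.

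Cytosolic tRNA synthetases, which load amino acids onto tRNAs, fell in part. Of 18 tested, 11 fell and 2 rose, with a median log2 fold change of -0.34. AARS, the alanine enzyme, measured 339, 345 and 347 CPM in the parental libraries and 181, 199 and 179 CPM in the knockout libraries (log2 fold change -0.88, adjusted p = 4.06e-10). GARS, CARS, MARS, SARS, TARS and YARS changed by -0.83, -1.18, -0.66, -0.63, -0.58 and -0.45, each past the test and without overlap between the groups. Groups without overlap were found in 48.9% of all genes tested. The 2 that rose were RARS and KARS, by 0.15 and 0.12, the arginine and lysine enzymes. Those 2 calls rest on particular libraries: RARS without parental replicate 3 or knockout replicate 1 or 3 (adjusted p up to 0.120) and KARS without parental replicate 1 or 3 or knockout replicate 1 or 3 (adjusted p up to 0.155) lost them. NARS, the asparagine enzyme, measured 412 ± 7.30 and 393 ± 12.4 CPM and did not pass the test. Of 17 mitochondrial synthetases 4 rose and 1 fell, with a median of 0.04.

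The chaperones of the endoplasmic reticulum (ER), which its stress response also controls, did not fall as a list. Of 27 ER chaperones and folding enzymes, 10 rose and 4 fell, with a median log2 fold change of 0.10. The number that rose was 6 without parental replicate 3 and 6 without knockout replicate 1. CRELD2, a disulphide isomerase-like protein, rose by 0.66 (adjusted p = 1.19e-06), SDF2L1, a partner of the chaperone BiP, by 0.52, and CALR, a chaperone of glycoproteins, by 0.38. HSPA5, which encodes BiP, the main ER chaperone, measured 617, 599.7 and 532 CPM in the parental libraries and 705, 603 and 684 CPM in the knockout libraries, so its groups overlapped although it passed the test (log2 fold change 0.19, adjusted p = 0.046). Its call was lost in 4 of the 6 cases with a library left out: HSPA5 without parental replicate 2 or 3 or knockout replicate 1 or 3 (adjusted p up to 0.146). HSP90B1, the ER form of HSP90, did not pass (-0.056, adjusted p = 0.414). ERO1B and DNAJC3, an oxidase and a co-chaperone of the same compartment, fell, by 0.56 and 0.23.

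The ER stress element, bound by ATF6, and the UPR element were searched in the same promoter windows. The ER stress element lay in 7 of the 24 ER chaperone genes with a promoter (29.2%) and in 0.0916% of all RefSeq genes, and the UPR element (TGACGTG, either strand) in 4 of 24 (16.7%) and in 2.40% of all RefSeq genes. The 7 genes with the ER stress element were CANX, HSP90B1, CALR, ERO1B, HSPA5, CRELD2 and PDIA6, whose median log2 fold change was 0.16. Of them PDIA6 was called with a rise of 0.16 that was lost in 4 cases (without parental replicate 1 or 3 or knockout replicate 1 or 3, adjusted p up to 0.112). Windows of 120 bases are shown for CRELD2 (chr22:49918514-49918633, plus strand), PDIA6 (chr2:10812786-10812905, minus strand) and CALR (chr19:12938359-12938478, plus strand), with the element in capitals, to set beside the promoters of the falling genes. They are in GRCh38.p14 from RefSeq, and in CRELD2 and CALR the element reads on the other strand.
CRELD2: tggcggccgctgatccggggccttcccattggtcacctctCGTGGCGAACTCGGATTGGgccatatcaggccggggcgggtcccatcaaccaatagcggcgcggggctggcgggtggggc
PDIA6: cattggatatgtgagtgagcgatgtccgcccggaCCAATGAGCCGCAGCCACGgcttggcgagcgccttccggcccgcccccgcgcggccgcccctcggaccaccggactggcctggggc
CALR: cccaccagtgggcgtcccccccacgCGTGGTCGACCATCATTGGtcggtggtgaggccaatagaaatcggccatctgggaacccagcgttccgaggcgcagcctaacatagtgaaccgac
No match says only that these letters are not in the window, and a match is not evidence of binding.

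Of 31 genes of ER-associated degradation and stress sensing 6 fell (19.4%, near the 20.2% of all genes) and 2 rose (6.45%, against 17.6%). The median log2 fold change was -0.018, so the list did not fall as a whole. HERPUD1, an ER degradation factor, measured 60.8, 63.1 and 56.7 CPM in the parental libraries and 30.4, 33.3 and 31.7 CPM in the knockout libraries, a log2 fold change of -0.92 (adjusted p = 3.99e-09). XBP1, the transcription factor spliced by the stress sensor IRE1, changed by -0.31, ERN1, which encodes IRE1, by -0.36, and EDEM1, a mannosidase-like degradation factor, by -0.45. VCP, the segregase that extracts proteins for degradation, rose by 0.34, and RNF5, a ubiquitin ligase of the ER membrane, by 0.20. The last call was lost in 1 case: RNF5 without parental replicate 1 (adjusted p of 0.0591).

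Subunits of the proteasome, which degrades ubiquitinated proteins, rose together by small amounts. Of 45 tested, 32 rose (71.1%) and 2 fell, with a median log2 fold change of 0.22. PSMD11, a lid subunit, measured 123, 126 and 113 CPM in the parental libraries and 176, 153 and 163 CPM in the knockout libraries (log2 fold change 0.44, adjusted p = 1.20e-05). PSMB2 and PSMB3, of the catalytic core, rose by 0.44 and 0.42. PSME1 and PSME2, the subunits of the PA28 activator, rose by 0.80 and 0.52, and PSMB10, of the immunoproteasome, by 0.53. The 2 that fell were PSMC3, an ATPase of the base, by 0.32, and the immunoproteasome subunit PSMB8, by 0.12. The latter was uncertain, since leaving out a library ended it: PSMB8 without parental replicate 1, 2 or 3 or knockout replicate 1 or 2 (adjusted p up to 0.199).

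Mitochondrial translation and respiration moved the same way. Of 77 mitochondrial ribosomal proteins, 44 rose and 2 fell (median 0.17). The 2 were MRPL10 and MRPL42. MRPL11, of the large subunit, measured 86.5, 88.4 and 81.3 CPM in the parental libraries and 119, 107 and 111 CPM in the knockout libraries (log2 fold change 0.39, adjusted p = 1.45e-05). Of 45 complex I subunits and assembly factors, 24 rose and NDUFV3 fell (median 0.24). NDUFAB1, the acyl carrier protein of complex I, rose by 0.38 (adjusted p = 3.15e-05), and NDUFA2 and NDUFS3 by 0.45 and 0.35. The falls named here were not stable to leaving out a library: MRPL10 without parental replicate 2 or knockout replicate 2 or 3 (adjusted p up to 0.154), MRPL42 without parental replicate 1, 2 or 3 or knockout replicate 1, 2 or 3 (adjusted p up to 0.145) and NDUFV3 without parental replicate 1 or 2 or knockout replicate 1 or 3 (adjusted p up to 0.149) were lost.

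Of 25 subunits of complexes II to IV, 17 rose and 0 fell (median 0.19). The number that rose was 11 without knockout replicate 3 and 10 on the log2(FPKM + 1) scale. UQCRFS1, the Rieske protein of complex III, rose by 0.31, and COX4I1, of complex IV, by 0.27. Of 17 ATP synthase subunits, 11 rose and 0 fell (median 0.25), among them ATP5A1, the alpha subunit of the F1 part, by 0.27. For both lists the count of falls was also 0 at an unadjusted p under 0.05, in DESeq2 and in limma's test. The 13 proteins encoded in mitochondrial DNA had a median of 0.16, with 12 of 13 above 0, and 0 were called by edgeR, at an unadjusted p under 0.05, in DESeq2 or in limma's test. Of 22 genes of mitochondrial protein import, 10 rose and 3 fell, the 3 being TIMM44, TOMM20 and TIMM9. Of these, TOMM20 without parental replicate 1 (adjusted p of 0.0544) and TIMM9 without knockout replicate 2 (adjusted p of 0.0610) were lost.

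Many of these subunits have short transcripts, and change ran with transcript length over all protein-coding genes. In the sixth of protein-coding genes whose longest annotated transcript was shortest (up to 1973 bases in GENCODE 29), 29% rose and 13.1% fell, with a median log2 fold change of 0.10. In the sixth with the longest transcripts 14.5% rose and 29% fell, with a median of -0.05. Complex I had 26 of its 45 genes in the shortest sixth, with a median of 0.35, against 0.11 for the others. For mitochondrial ribosomal proteins 45 of 77 lay there, with medians of 0.19 and 0.16, and for the proteasome 18 of 45, with medians of 0.26 and 0.19. For cytosolic ribosomal proteins 46 of 84 lay there, with medians of -0.058 and -0.10. In each of these lists the median was thus higher for the members in the shortest sixth. The part of length in these shifts was not tested.

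Cytosolic heat shock chaperones rose more often than they fell, with 18 rises and 2 falls among 35 (median 0.16). HSPA8, the constitutive HSP70, measured 2189.8, 2289 and 2054 CPM in the parental libraries and 3368, 2864 and 3200.3 CPM in the knockout libraries (log2 fold change 0.53, adjusted p = 4.71e-06). The co-chaperones DNAJB1, DNAJA1 and AHSA1 rose by 0.45, 0.56 and 0.46. HSPA1B rose by 0.45, but its near-identical copy HSPA1A can share its reads, so the split between them is uncertain. Of the 9 subunits of the chaperonin CCT, which folds actin and tubulin, 5 rose, and 0 fell in edgeR, at an unadjusted p under 0.05, in DESeq2 or in limma's test. The 2 heat shock genes that fell were HSPA13, by 0.63, and DNAJA3, by 0.15.

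**Figure D4:**
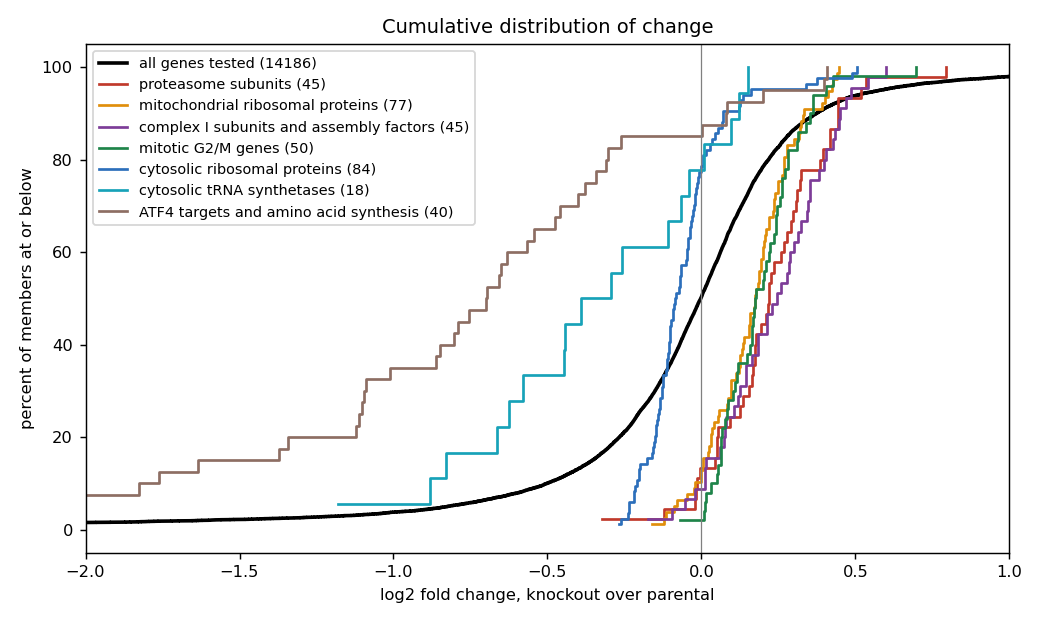
Cumulative distribution of the log2 fold change in 7 gene lists and in all genes tested (black), with the number of tested members in parentheses. The horizontal axis is cut at -2 and 1. The proteasome, complex I, mitochondrial ribosomal and mitotic curves run to the right of all genes by about 0.2, the cytosolic ribosomal curve slightly to the left, and the tRNA synthetase and amino acid response curves far to the left.

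Of 84 cytosolic ribosomal proteins, 20 fell (23.8%, near the 20.2% of all genes) and 3 rose (3.57%, against 17.6%), with a median log2 fold change of -0.08, and 66 of the 84 were below 0. The count of falls was 40 without parental replicate 3, 13 without parental replicate 2 and 13 without knockout replicate 2, 33 with no low-count filter, and 10 on the log2(FPKM + 1) scale. RPL3 measured 3461, 3663 and 3548 CPM in the parental libraries and 2872, 3089.5 and 2902 CPM in the knockout libraries (log2 fold change -0.27, adjusted p = 2.02e-04). RPL13A, RPL5 and RPL10 changed by -0.24, -0.26 and -0.22. The 3 that rose were RPS26, by 0.50, and the paralogs RPS27L and RPL26L1, by 0.49 and 0.37. Ribosomal protein genes have many processed pseudogenes, so shared reads make their small differences less certain.

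Small nucleolar RNA host genes, non-coding genes whose introns hold guides for modifying ribosomal RNA, fell more. Of 19 tested, 8 fell (median -0.21), and 0 rose in edgeR, at an unadjusted p under 0.05, in DESeq2 or in limma's test. GAS5 measured 323, 329 and 293 CPM in the parental libraries and 194, 217 and 215 CPM in the knockout libraries (log2 fold change -0.59, adjusted p = 3.27e-07). SNHG1 and SNHG8 changed by -0.63 and -0.45. The host genes GAS5 and SNHG1, like ribosomal protein genes and EEF1A1, are known for a terminal oligopyrimidine start.

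Of 54 translation initiation factors, 15 rose (27.8%) and 16 fell (29.6%), against 17.6% and 20.2% of all genes. On the log2(FPKM + 1) scale 9 rose and 10 fell. EIF1, which sets start codon choice, changed by -0.66 (adjusted p = 2.43e-08), the eIF2 subunits EIF2S2 and EIF2S3 by -0.40 and -0.41, and EIF4EBP1, the mTOR-regulated inhibitor of cap binding and an ATF4 list member, by -0.40. EIF3I and EIF5A rose, by 0.26 and 0.26. Of 56 ribosome biogenesis genes 22 rose and 3 fell (median 0.09). UTP20, of the small subunit processome, rose by 0.46 (adjusted p = 1.18e-06), MRTO4 and RRP9 by 0.40 and 0.43, and the 3 that fell were POLR1D, POLR1E and NOB1. The E-box CACGTG, to which MYC and MAX bind, lay in the promoter window of 19 of the 48 biogenesis genes with a promoter (39.6%) and of 8.77% of all RefSeq genes, tested or not. The 19 had a median log2 fold change of 0.13 and the other 29 one of 0.09. MYC, an activator of these genes, averaged 1574 ± 22.3 and 2054 ± 51.8 CPM in parental and knockout cells (log2 fold change 0.38, adjusted p = 2.18e-06).

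Mitotic genes rose, with no fall among 50. In all 33 rose and 0 fell (median 0.18), and 49 of the 50 fold changes were above 0; the count of falls was also 0 at an unadjusted p under 0.05, in DESeq2 and in limma's test. CDC25B, the phosphatase that activates CDK1, measured 51.6, 49.3 and 55.2 CPM in the parental libraries and 83.7, 86.3 and 82.8 CPM in the knockout libraries (log2 fold change 0.70, adjusted p = 2.32e-08). CDC20, an activator of the anaphase-promoting complex, rose by 0.43, HMMR, a spindle protein, by 0.40, CCNA2, cyclin A, by 0.36 and BUB1, a checkpoint kinase, by 0.34. DNA replication genes moved less: 14 of 50 rose and 3 fell (median 0.06), and 8 rose on the log2(FPKM + 1) scale. PCNA, the sliding clamp, rose by 0.23, and CDT1, which loads the MCM helicase in G1 phase, fell by 0.55. A share of cells in each phase was not measured, so more mitotic cells and more transcript per cell cannot be told apart.

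Of 17 tested cell cycle inhibitors 5 fell (29.4%), 2 rose (11.8%) and 10 were not called (median -0.01, 7 above 0). Of 23 G1/S cyclins, kinases and E2F genes 5 rose (21.7%) and 6 fell (26.1%), with 3 falls on the log2(FPKM + 1) scale. Over all genes 17.6% rose and 20.2% fell. Of the inhibitors that fell, BTG1 and GADD45A changed by -1.03 and -0.62, and CDKN1B, the inhibitor p27, by -0.27. CDK6, a kinase of the G1 phase that is high in blood progenitors, rose by 0.94 (adjusted p = 6.56e-10). Of 65 DNA repair genes 11 rose (16.9%, near the 17.6% of all genes) and 10 fell (15.4%, against 20.2%). The number that rose was 7 without knockout replicate 3. The number that fell was 3 on the log2(FPKM + 1) scale and 5 or 6 without parental replicate 1, parental replicate 3, knockout replicate 1 or knockout replicate 3. Of 21 tested p53 target genes 5 rose (23.8%) and 2 fell (9.52%). TNFRSF10B, a death receptor for the ligand TRAIL, was far apart from the rest at 0.489 ± 0.123 against 22.9 ± 1.87 CPM.

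Defining genes of promyelocytes were present in part. MPO, the azurophil granule peroxidase, was among the most abundant transcripts, at 10827, 10351 and 10648 CPM in the parental libraries and 9141, 8556 and 8479 CPM in the knockout libraries, and it fell by 0.28 on the log2 scale (adjusted p = 1.50e-04). ELANE, the gene of neutrophil elastase and another defining azurophil gene, held 3, 3 and 4 counts in the parental libraries and 0 in each knockout library, and the azurophil defensin genes described below were near 0 in the knockout. Of the markers of other lineages, 12 of 36 lymphoid genes, 14 of 22 erythroid genes, 8 of 21 megakaryocyte and platelet genes, 2 of 19 eosinophil, basophil and mast cell genes and 9 of 23 epithelial, fibroblast and endothelial genes had no count in any library. Those under 0.5 CPM in every library numbered 27, 16, 15, 7 and 14 in the same order. The summed level of the lymphoid list ran from 307 to 322 CPM over the 6 libraries and that of the megakaryocyte list from 523 to 560.4 CPM. The eosinophil, basophil and mast cell list summed to between 1246 and 1514 CPM in the parental and between 729 and 909 CPM in the knockout libraries, and the epithelial, fibroblast and endothelial list to between 73.5 and 76.9 and between 49.3 and 51.2 CPM. VIM, whose fall is given below with the actin genes, held most of the last list's sum in the parental libraries. The summed level of the erythroid list was 262 to 310.4 CPM in the parental and 431 to 494 CPM in the knockout libraries, and TFRC, the transferrin receptor that dividing cells also use, held most of it. HBB, PF4 and EPCAM were at 0 in every library.

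Azurophil granule genes moved in both directions. Of 21 tested, 9 rose and 9 fell (median 0.01). CALR, which rose, and PRG2, which fell, are counted here and again in the ER chaperone and eosinophil lists. PRTN3, proteinase 3, measured 394, 408 and 369 CPM in the parental libraries and 544, 459.9 and 489.8 CPM in the knockout libraries (log2 fold change 0.35, adjusted p = 2.55e-04). PRSS57, another granule serine protease, rose from 0.692 ± 0.128 to 15.3 ± 1.05 CPM. CTSG, cathepsin G, measured 42.7, 39.9 and 33.1 CPM in the parental libraries and 23.9, 22.7 and 22.7 CPM in the knockout libraries (log2 fold change -0.74, adjusted p = 6.90e-06). The alpha-defensin genes DEFA1, DEFA3 and DEFA4 all fell, DEFA4 from 3.67 ± 0.508 to 0.0428 ± 0.0140 CPM, but DEFA1 and DEFA3 are near-identical copies whose reads cannot be split with certainty. Of the 12 tested eosinophil, basophil and mast cell genes 4 rose and 3 fell (median 0.18, 7 above 0), and 1 fell on the log2(FPKM + 1) scale and without parental replicate 1, knockout replicate 1 or knockout replicate 2. PRG2, the major basic protein of eosinophils and the most abundant of them, fell by 1.09, from 1261 ± 146 to 591 ± 85.2 CPM, while CLC, the Charcot-Leyden crystal protein, and HDC, which makes histamine, rose by 1.11 and 1.93. HDC was low in both groups, at 0.248 ± 0.0407 and 0.955 ± 0.292 CPM.

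Later neutrophil and monocyte genes were mostly low and mixed. Of 39 late neutrophil genes 18 were tested, and 5 rose (27.8%) and 5 fell (27.8%), against 17.6% and 20.2% of all genes. S100A9, a calcium-binding alarmin, measured 45.9 ± 5.21 and 32.1 ± 2.32 CPM (log2 fold change -0.51, adjusted p = 1.33e-04), while CXCR2, the interleukin-8 receptor, rose by 0.74. Of 24 tested monocyte and macrophage genes 10 rose (41.7%) and 6 fell (25%). C1QA, a chain of complement C1q that macrophages secrete, measured 2.57, 3.81 and 3.83 CPM in the parental libraries and 52, 54.4 and 55.9 CPM in the knockout libraries (log2 fold change 3.98, adjusted p = 2.33e-13). CSF1R, the receptor for macrophage colony-stimulating factor, rose from 1.49 ± 0.221 to 5.53 ± 0.700 CPM. CTSL, a lysosomal protease, fell from 14.5 ± 1.41 to 0.469 ± 0.0815 CPM, and the inhibitory receptors LILRB1 and LILRB2 changed by -1.43 and -1.43. CD14 had 0 to 5 counts per library and was not tested. Of 9 genes of the NADPH oxidase, which makes superoxide, 6 rose and RAP1A fell, with NCF4 and CYBA rising by 0.32 and 0.24. The fall was lost in 4 cases (without parental replicate 1 or 3 or knockout replicate 1 or 2, adjusted p up to 0.123). NCF1, at 0.37, has near-identical pseudogenes.

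Of 34 myeloid transcription factors, 8 rose and 14 fell, and 3 rose and 6 fell on the log2(FPKM + 1) scale; the number that fell was 8 without parental replicate 3 or without knockout replicate 3. CEBPA, which starts granulocyte differentiation, rose by 1.12 (adjusted p = 1.90e-11). SPI1, which encodes PU.1, measured 303, 322 and 313 CPM in the parental libraries and 252, 251 and 232 CPM in the knockout libraries (log2 fold change -0.35, adjusted p = 1.37e-05). CEBPE, the factor of late granule genes, changed by -0.14. That call was lost in 3 of the 6 cases: CEBPE without parental replicate 2 or 3 or knockout replicate 3 (adjusted p up to 0.119). The low-level factors KLF4 and ID1 fell, from 2.21 ± 0.512 to 0.345 ± 0.123 CPM and from 3.97 ± 0.307 to 1.59 ± 0.113 CPM, and RARG, a retinoic acid receptor, rose by 2.27. Of 15 tested stem and progenitor genes 4 rose and 6 fell: LMO2 and MYB, regulators of progenitors, changed by -0.67 and -0.35, and GATA2 by 0.41.

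Adhesion genes fell more often than they rose. Of 24 tested, 12 fell (50%, against 20.2% of all genes) and 4 rose (16.7%, near the 17.6% of all genes), with a median of -0.13. On the log2(FPKM + 1) scale 6 fell. ITGAL, the alpha chain of the integrin LFA-1, measured 212, 202 and 215 CPM in the parental libraries and 126, 133 and 121 CPM in the knockout libraries (log2 fold change -0.73, adjusted p = 3.69e-09). Its beta chain ITGB2 changed by -0.28 and its ligands ICAM1 and ICAM2 by -1.80 and -0.90. The 4 that rose were ITGB7, from 1.90 ± 0.384 to 11.5 ± 1.05 CPM, ITGA6, JAML and VCL, the last with the call lost in 2 cases (without parental replicate 1 or knockout replicate 3, adjusted p up to 0.126). In the actin and motility list 24 of 45 rose and 5 fell (median 0.13), and 14 rose without parental replicate 1. CAPG, which caps actin filaments, rose by 0.89 (adjusted p = 2.78e-08) and LMNA, which encodes lamin A, by 0.62. VIM, MARCKSL1, TPM2 and RDX were among those that fell, of which VIM, the intermediate filament vimentin, measured 45.3, 47.6 and 46.8 CPM in the parental libraries and 23.7, 22.9 and 21.9 CPM in the knockout libraries.

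Of 8 tested SERPIN inhibitors 7 fell (median -0.88), and 0 rose in edgeR, at an unadjusted p under 0.05, in DESeq2 or in limma's test. SERPINB8 measured 62.1, 61.2 and 63.8 CPM in the parental libraries and 36.3, 34.3 and 32.6 CPM in the knockout libraries (log2 fold change -0.86, adjusted p = 3.99e-09). SERPINB2, an inhibitor of plasminogen activators, and SERPINB10 changed by -1.04 and -0.90. These 3 genes are neighbours on chromosome 18, between 63871692 and 64019779 (GRCh38). SERPINE2, on another chromosome, fell from 3.79 ± 0.568 to 0.448 ± 0.223 CPM. Of 8 tested chemokine receptors 4 rose and 0 fell, the latter also at an unadjusted p under 0.05, in DESeq2 and in limma's test. The 4 were CXCR2, CXCR3, CX3CR1 and CCR2, with log2 fold changes of 0.74, 1.39, 1.32 and 1.24. The last 3 were low, with means of 1.65, 0.756 and 0.556 CPM in the parental group and 4.33, 1.87 and 1.32 CPM in the knockout group. LGALS1, a galectin that binds galactosides, rose from 10.4 ± 1.28 to 31.1 ± 1.33 CPM.

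In signalling, of 25 immediate early genes, which respond first to stimuli, 13 fell, MAFK rose and 11 were not called, with a median log2 fold change of -0.31 and 9 of the 25 above 0. ATF3, which is also an ATF4 target, measured 21, 17.7 and 19.1 CPM in the parental libraries and 6.87, 8.10 and 7.52 CPM in the knockout libraries (log2 fold change -1.36, adjusted p = 1.08e-08). EGR1 and JUN, transcription factors downstream of MAP kinases, changed by -0.80 and -0.59 (adjusted p = 3.72e-07 and 1.36e-04). Of 19 genes of MAP kinase feedback 9 fell and DUSP5 rose, with 5 falls on the log2(FPKM + 1) scale. The rise of DUSP5 was lost in 3 cases (without parental replicate 1 or knockout replicate 1 or 3, adjusted p up to 0.0848). SPRY4, an inhibitor of receptor signalling, measured 10.6, 10.5 and 10.7 CPM in the parental libraries and 2.57, 3.24 and 3.16 CPM in the knockout libraries. DUSP4 and DUSP6, phosphatases of ERK, changed by -1.53 and -0.29. Of 24 protein tyrosine phosphatases 11 fell and PTPN6 rose (median -0.24), but the number that fell was 3 on the log2(FPKM + 1) scale and 7 without parental replicate 3.

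Of 26 genes of TGF-beta, BMP and SMAD signalling 12 fell (46.2%, against 20.2% of all genes) and 3 rose (11.5%, against 17.6%). The median was -0.19, and 6 fell on the log2(FPKM + 1) scale. The receptor genes BMPR2, TGFBR1 and TGFBR3 changed by -0.99, -0.32 and -0.67, and the BMP targets ID1 and ID3 by -1.32 and -2.48. The 3 that rose were SMAD2 and SMAD3, which carry the TGF-beta signal, by 0.24 and 0.20, and the inhibitor SMAD6, by 0.71. The rise of SMAD3 was lost in 4 cases (without parental replicate 1 or 3 or knockout replicate 1 or 3, adjusted p up to 0.182). Of 36 Wnt and Notch genes 15 fell (41.7%) and 5 rose (13.9%), with a median of -0.16, and 6 fell on the log2(FPKM + 1) scale. The Notch ligands JAG1 and DLL4 changed by -0.56 and -0.96 and the Notch target NRARP by -1.18, while the receptor NOTCH1 rose by 0.41. FYN, a SRC family kinase, fell from 2.57 ± 0.171 to 0.258 ± 0.0756 CPM, and its relatives LYN and FGR rose by 0.31 and 0.93.

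Genes of cell death and innate sensing held some large, low-level changes. RIPK3, the kinase of necroptosis, fell from 3.47 ± 0.219 to 0.0641 ± 0.0269 CPM (adjusted p = 8.91e-10). CASP1, the inflammasome protease, rose from 3.05 ± 0.486 to 12.8 ± 1.24 CPM, and MYD88, the adaptor of toll-like receptors, fell from 15 ± 0.412 to 4.24 ± 0.0527 CPM. In none of these genes did the groups overlap, as in 48.9% of all genes tested. Over the lists the changes were mixed: 9 of 35 death receptor and caspase genes rose (25.7%) and 4 fell (11.4%). Of 24 sensor genes 4 rose (16.7%) and 7 fell (29.2%). Over all genes 17.6% rose and 20.2% fell. MCL1, an anti-apoptotic BCL2 relative that is high in myeloid cells, measured 413, 402 and 408 CPM in the parental libraries and 311, 344 and 331 CPM in the knockout libraries (log2 fold change -0.31, adjusted p = 3.78e-05).

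Class I antigen presentation shifted between its parts. Of 17 genes 5 rose and 7 fell. HLA-E measured 564 ± 11.9 CPM in the parental group and 309 ± 23.7 CPM in the knockout group (adjusted p = 1.31e-09), and HLA-B and HLA-C, which are alike enough to share reads, changed by -0.26 and -0.28. B2M, their common light chain, did not pass the test (-0.085, adjusted p = 0.126). The peptidases ERAP1 and ERAP2, which trim peptides, rose by 0.25 and 1.17. Of 27 interferon-stimulated genes 10 rose and 6 fell, with IFIT3 rising from 3.17 ± 0.241 to 8.44 ± 0.876 CPM and OAS3, a sensor of double-stranded RNA, falling from 2.65 ± 0.437 to 0.0997 ± 0.106 CPM. DDX60, an antiviral helicase, had 1 count in the parental group and 76 in the knockout group, a 96.2-fold ratio (95% counting interval 16.8 to 3851).

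In lipid metabolism, cholesterol genes rose more often than they fell, and the desaturases of polyunsaturated fatty acids fell. Of 34 genes of cholesterol synthesis and uptake 15 rose and 5 fell (median 0.14). INSIG1, which holds back sterol synthesis when sterols are plentiful, measured 139, 138 and 136 CPM in the parental libraries and 184, 160.2 and 186 CPM in the knockout libraries (log2 fold change 0.36, adjusted p = 4.85e-05). NSDHL, of the same pathway, rose by 0.45, and CYP51A1, the sterol demethylase, from 2.08 ± 0.379 to 75.5 ± 3.69 CPM. The 5 that fell were SOAT1, TM7SF2, LPIN1 and the regulators SREBF2 and SCAP, the last pair by 0.13 and 0.14. The calls of that pair were lost in several cases: SREBF2 without parental replicate 3 or knockout replicate 3 (adjusted p up to 0.105) and SCAP without parental replicate 1, 2 or 3 or knockout replicate 1 or 3 (adjusted p up to 0.103). The sterol response element TCACNCCAC lay in 1 of the 27 promoters of the list (3.70%), that of SREBF2, and in 1.39% of all RefSeq genes.

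Of 28 genes of fatty acid synthesis, desaturation and elongation 5 rose and 11 fell. FADS1, a polyunsaturated fatty acid desaturase, measured 107, 100.01 and 109.8 CPM in the parental libraries and 5.29, 5.71 and 6.08 CPM in the knockout libraries. FADS2, its neighbour on chromosome 11, measured 74.1, 70.8 and 79 CPM and 35.6, 30.02 and 30.8 CPM in the same order (log2 fold change -1.22, adjusted p = 7.46e-10). The elongase ELOVL6 changed by -0.67, while FASN, fatty acid synthase, rose by 0.41 (adjusted p = 9.57e-07). The main stearoyl desaturase SCD measured 758 ± 25.5 and 776 ± 37.4 CPM and did not pass the test. Of 38 sphingolipid and phospholipid enzymes 8 rose and 15 fell, with 6 falls on the log2(FPKM + 1) scale.

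Of 41 genes of glycolysis and hypoxia 17 fell (41.5%, against 20.2% of all genes) and 9 rose (22%, near the 17.6% of all genes), with 10 falls on the log2(FPKM + 1) scale. HK1 and HK2 are hexokinases, which start glycolysis: HK1 measured 6.06, 7.86 and 6.42 CPM in the parental libraries and 22.3, 22.8 and 22.8 CPM in the knockout libraries, and HK2 changed by -0.26. LDHA, PKM, TPI1 and PGAM1, later enzymes of the pathway, rose by 0.39, 0.38, 0.28 and 0.27. SLC2A3, a glucose transporter, measured 126, 129.8 and 141 CPM in the parental libraries and 61.5, 68.1 and 64.9 CPM in the knockout libraries (log2 fold change -1.03, adjusted p = 2.97e-10). DDIT4, an mTORC1 inhibitor that is also in the ATF4 list, and P4HA1, a hypoxia-induced prolyl hydroxylase, changed by -1.09 and -0.49.

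Of 41 genes of the NRF2, glutathione and thioredoxin systems 19 rose and 3 fell (median 0.15). MGST3, GSS and GCLM, of glutathione synthesis and use, rose by 0.43, 0.34 and 0.32. The 3 that fell were SLC7A11, ME1 and TXNIP, of which TXNIP, an inhibitor of thioredoxin, measured 237 ± 8.49 and 146 ± 17 CPM (adjusted p = 2.05e-05). The core of the antioxidant response element, TGACNNNGC, lay in 7 of the 30 promoters (23.3%) and in 16.1% of all RefSeq genes. Of the 28 iron and haem genes 8 rose and 8 fell, with 5 falls on the log2(FPKM + 1) scale. TFRC, the transferrin receptor, measured 225, 207 and 178 CPM in the parental libraries and 417, 349 and 416 CPM in the knockout libraries (log2 fold change 0.96, adjusted p = 8.76e-04), and of the ferritin chains FTL rose by 0.33 and FTH1 fell by 0.29.

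Among chromatin regulators, PRC1 genes fell more often than they rose. Of 28, 13 fell (46.4%, against 20.2% of all genes) and 5 rose (17.9%, near the 17.6% of all genes), with a median of -0.12. On the log2(FPKM + 1) scale 6 fell. PHC1, a PRC1 subunit, measured 32.2, 28.1 and 32.1 CPM in the parental libraries and 16.7, 19.5 and 17.3 CPM in the knockout libraries (log2 fold change -0.79, adjusted p = 6.04e-07). PCGF2, a further subunit, and KDM2B, which recruits a variant PRC1 to CpG islands, changed by -0.58 and -0.41. PCGF5, which marks another variant PRC1, went the other way, from 1.89, 1.95 and 2.09 CPM in the parental libraries to 15.5, 15.3 and 17.7 CPM in the knockout libraries (log2 fold change 3.02, adjusted p = 5.81e-12). BAP1, which removes ubiquitin from histone H2A, rose by 0.20.

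Of 17 genes of the H3K4 methyltransferase complexes 6 rose and PSIP1 fell (median 0.11). CXXC1, which binds unmethylated CpG, rose by 0.37, and MEN1 and KMT2D by 0.34 and 0.22. Of 19 other histone lysine demethylases 7 fell and MINA rose, the rise being lost in 3 cases (without parental replicate 3 or knockout replicate 1 or 3, adjusted p up to 0.121). KDM7A, an H3K9 and H3K27 demethylase, fell from a mean of 2.33 ± 0.166 to 0.576 ± 0.0731 CPM in the knockout group (log2 fold change -2.0, adjusted p = 4.57e-06), and KDM4A and KDM4B changed by -0.47 and -0.27. DNMT3A, a de novo DNA methyltransferase, measured 26, 23 and 24.3 CPM in the parental libraries and 14.5, 14.4 and 15.1 CPM in the knockout libraries (log2 fold change -0.74, adjusted p = 6.93e-07). SMARCA2, an ATPase of the SWI/SNF remodeller, rose by 0.60.

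HOX genes, classical Polycomb targets that pattern the body axis and act in blood progenitors, were mostly off in both lines. Of 39 only 10 passed the filter, of which 7 fell, and 0 rose in edgeR, at an unadjusted p under 0.05, in DESeq2 or in limma's test. Their median log2 fold change was -1.08, which is the same with HOXC10 at its bound, and 9 of 10 were below 0. HOXB6 measured 13.8, 17.4 and 14.6 CPM in the parental libraries and 3.40, 3.83 and 4.18 CPM in the knockout libraries (log2 fold change -2.0, adjusted p = 1.31e-09). HOXC8, HOXC9, HOXA11 and HOXA13, all under 5 CPM in every library, changed by -1.31, -0.86, -1.89 and -1.62. HOXA9, a frequent leukaemia gene, had no count in any library.

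Zinc finger genes held some of the largest changes but not more calls than other genes. Of 339 tested ZNF genes 38 rose (11.2%) and 72 fell (21.2%), with 25 and 34 on the log2(FPKM + 1) scale, against 17.6% and 20.2% of all genes. ZNF37A measured 0.433, 0.803 and 0.386 CPM in the parental libraries and 58.5, 59.4 and 60.2 CPM in the knockout libraries. ZNF559 had 536 counts in the parental group and 0 in the knockout group, a level at least 141-fold lower on the floor of 3 counts. Many ZNF genes lie in clusters of related copies, so shared reads could add to their differences. Of 451 long intergenic non-coding RNAs 24 rose (5.32%) and 61 fell (13.5%), both below the shares over all genes, with a median of -0.13. Of 17 tested histone genes 5 rose and HIST3H2A fell (median 0.62), among them HIST1H2BK and HIST1H2BD, the latter not called in 4 cases (without parental replicate 1 or 3 or knockout replicate 1 or 3, adjusted p up to 0.114).

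Other genes with large changes were of unlike kinds. ANXA6, an annexin, measured 1.38, 1.52 and 1.56 CPM in the parental libraries and 145, 139 and 137 CPM in the knockout libraries. GAS2L1, a linker of actin and microtubules, measured 0.527 ± 0.226 and 63.1 ± 4.27 CPM, MLLT4, the junction protein afadin, 67.6 ± 2.24 and 11.7 ± 0.324 CPM, and TRIM72, a membrane repair protein, 29.5 ± 0.643 and 0.772 ± 0.157 CPM. ARHGAP5, a GTPase-activating protein, fell from 5.13 ± 0.618 to 0.0856 ± 0.0279 CPM. MAP3K6 and ADAMTS10 had no count in the knockout group, at least 23.2-fold and 12.1-fold lower on the floor, and ABCA5 had none in the parental group, at least 38.4-fold higher.

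By position, chromosome 18 stood apart. Of its 197 tested genes 72 rose (36.5%) and 18 fell (9.14%), with a median log2 fold change of 0.16. No other chromosome's median lay beyond 0.05 either way, apart from the mitochondrial one at 0.13 over 15 genes. Over windows of 10 Mb with 15 or more tested genes, 272 in all, the middle 90% of medians ran from -0.14 to 0.12. The window from 70 to 80 Mb of chromosome 18 had a median of 0.23, with 22 of 27 genes above 0. At the other end lay the window from 30 to 40 Mb of chromosome 12, with a median of -0.30 and 5 of 24 genes above 0, and from 60 to 70 Mb of chromosome 9, with a median of -0.26. The SERPINB genes of chromosome 18 fell against its general rise. On chromosome 13, 12.3% of genes rose and 27.3% fell. Copy number was not measured, and its part in these shifts was not tested.

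**Figure D5:**
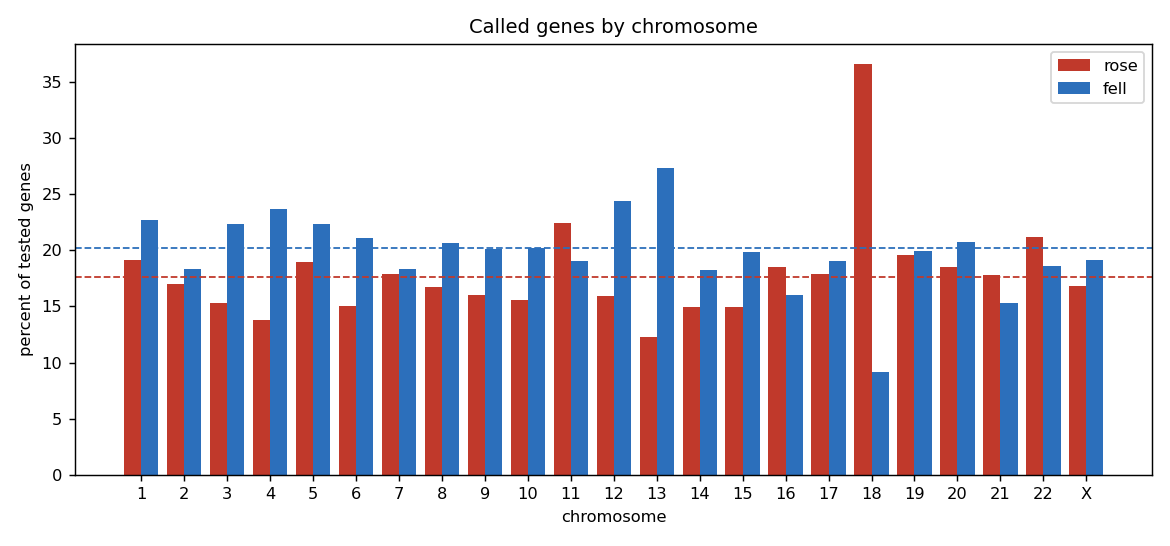
Percent of tested genes on each chromosome that rose (red) or fell (blue) in the knockout at an adjusted p under 0.05. Dashed lines mark the shares over all genes tested, 17.6% and 20.2%. Chromosome 18 has the highest share of rises, 36.5%, and the lowest share of falls, 9.14%.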

How the data were processed

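Bulk RNA was sequenced in 6 HL-60 libraries, 3 parental and 3 JMJD3 knockout, grouped by their labels. Per the labels' protocols, libraries were made from total RNA with an Illumina TruSeq kit that does not mark strand, so the reads of overlapping or antisense genes are mixed. Tools named in the submitters' processing notes were CASAVA 1.8, TopHat2 2.0.4, RSEM and edgeR, with GRCh38 as the genome, but not the role of each.

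For each library the authors' table gives counts and FPKM. The deposited count columns behave as RSEM expected counts multiplied by a factor per library: after division by the recovered factor (0.772 to 1.197), between 92.9% and 93.5% of the values no higher than 1000 lay within 0.02 of a whole number. The expected counts were then rounded. FPKM, as deposited by the authors, was used for KDM6B and in the limma alternatives. Log2 fold changes and p-values from the authors' deposited table served only for a count: they mark 1716 genes as significant (absolute log2 fold change of 0.59 or more), of which 1459 were tested and 1296 called here. Symbols that a spreadsheet had turned into dates, 13 in all, were restored from the Ensembl identifier. GENCODE 29 (GRCh38) held 57046 of 60662 identifiers.

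The fit used edgeR 4.0.16 in R 4.3.3: TMM scaling, the default expression filter, the robust quasi-likelihood test and a Benjamini-Hochberg adjusted p under 0.05 over all 14186 genes tested. Standard errors are the absolute log2 fold change over the square root of the F statistic, and CPM is TMM-scaled. The common biological coefficient of variation was 0.0575. Folds against a group at 0 use a floor of 3 counts over the group, and ratios with 1 to 3 counts a 95% counting interval; both cover counting error only. Alternatives were DESeq2 1.42.0, limma 3.58.1 on log2(FPKM + 1) and log2(FPKM + 0.1), other scalings and filters, a replicate block and leaving out each library.

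The 65 gene lists, 58 gene families, named genes and tests were chosen with earlier results of these data known. The rule named KDM6B, KDM6A, EZH2 and EZH1; the on/off genes; the 12 largest rises and falls, the 10 smallest p-values and the 10 most abundant small shifts each way; the 10 most abundant uncalled genes; and of each list described up to 6 called members by p each way, its defining members and those completing a count of 5 or fewer. Other list members, NEFH and CTSL were chosen after their values were seen. Genes that the rule takes but whose values add nothing to the lists are left unnamed, and a few genes are not reported here. Promoters are RefSeq windows (GRCh38.p14, 35116 entries for 27305 genes) searched on both strands.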

Additional observations from a re-analysis of the deposited data

How the results depend on the processing

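Among the 17 alternatives, no call of the fit reversed its direction. The count of genes called, 5357, was 3224 on the log2(FPKM + 1) scale and 3251 on the log2(FPKM + 0.1) scale in limma's test, of which 3028 and 3066 were shared with the same direction. The count of falls, 2860, was 1532 and 1543 there. The cause was not tested. Calls under 0.5 numbered 2254 and 1883 in the same order. On the log2(FPKM + 1) scale, which compresses low genes by construction, calls of 1 or more numbered 88 higher and 156 lower. With a filter of 1 CPM in 3 libraries the rises of 1 or more numbered 176. KDM6B was -0.45 (adjusted p = 0.156) and -0.50 (adjusted p = 0.146) on these scales. Over the other scalings, filters and DESeq2 the total ran from 4945 to 5458.

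Leaving out each library in turn gave 4335 to 5313 calls, with 1992 to 2593 rises and 2343 to 2720 falls, and KDM6B from -0.62 to -0.48. Of 300 called genes named in the text 245 kept the call in every alternative they entered and 55 lost it in at least 1, with 49 lost on the log2(FPKM + 1) scale. Of 56 list counts of 10 or more, 32 moved by over 1.5 times on that scale.

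The replicate numbers were not taken as pairs: deviations of same-numbered libraries correlated at 0.036, -0.12 and -0.069 across genes. With the replicate block 4597 genes were called (2117 higher and 2480 lower), and KDM6B changed by -0.53 (adjusted p = 6.30e-05). On/off genes and promoter shares come from no test and were not run under limma. Depth limits the genes near 0, where counts of 0 to 3 set the bounds.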
